A study of Mus musculus with 4 samples.

Results

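TAM_cycling is the class of tumour-associated macrophages that the deposited cell annotation sets apart by genes of cell division. Its members were the cells carrying that class name, and they numbered 4618 of 33368 CD45+ cells, or 13.8%. A macrophage becomes a tumour macrophage either when a monocyte leaves the blood and matures in the tissue or when a resident macrophage divides, so dividing macrophages are a local source of these cells. A cell that enters division first copies its DNA in S phase, with licensing factors, polymerases and a supply of nucleotides, and then condenses and parts its chromosomes in G2 and M phase, with mitotic cyclins, kinases, kinetochores and a spindle. Mki67, Top2a, Stmn1, Ube2c and Birc5, the genes that define the class, belong mostly to the second of these programmes.

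Single-cell RNA-seq was done on CD45+ cells sorted from mouse melanomas, 1 sample for each of 4 conditions, 72 h after OT-1 T cells had been given to the mice, cells that recognize the ovalbumin that the tumour cells carry. All 4 tumour lines derive from YUMM1.7 (with Braf V600E and Cdkn2a-/- among its alleles) with ovalbumin, grown in Rag2-/- mice, which have no T or B cells of their own, and T cells were given on day 7. NTT is the cell line Y1.7_NTT_3A6, naive to targeted therapy, and RTT is the line Y1.7_RTT_2B12, which is resistant to BRAF inhibition. RTT_ROSA26 is the resistant line edited with a control guide, and RTT_PTGS12KO is the resistant line in which Ptgs1 and Ptgs2, the genes of both cyclooxygenases, were knocked out in the cancer cells and not in the macrophages. The labels speak of a single tumour for each condition and the legends of the study of pooled tumours, which is not settled here. Either way each condition is 1 sample, so no difference below has a replicate check or a p value, and an effect of the edit, of the line or of the tumours sampled cannot be told apart. Intervals are exact 95% limits that cover counting error alone and not the spread between tumours. The 3 comparisons were NTT against RTT, RTT_PTGS12KO against RTT_ROSA26, and RTT_ROSA26 against RTT. RTT serves in 2 of them and RTT_ROSA26 in 2, so they are not independent. Where 4 values stand together with no sample named, they follow the order NTT, RTT, RTT_ROSA26, RTT_PTGS12KO.

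The class held 79 cells in NTT and 873 in RTT, with 1834 in RTT_ROSA26 and 1832 in RTT_PTGS12KO. Their summed unique molecular identifiers (UMIs, each a counted molecule) came to 1425057, 18208859, 42620864 and 40905925 in the same order, so values in NTT are the least certain. The median cell held 16395 UMIs in NTT and 19669 in RTT, with 20412 in RTT_ROSA26 and 20656 in RTT_PTGS12KO. Depth differed between macrophage classes: the median TAM_C1q cell, of the complement-rich class, held 13182, 13586 and 14062 UMIs in RTT, RTT_ROSA26 and RTT_PTGS12KO, while the median Ctsk_Macro cell held 16793, 19418 and 19402, close to TAM_cycling in the edited tumours. In NTT the median of TAM_cycling lay under that of the 12 TAM_C1q cells, 21128 UMIs. Shares of cells with marker, cell cycle or interferon UMIs were therefore counted after each cell had been thinned to 5000 UMIs. All 4 samples were pooled and loaded 3 times on the instrument, and 75 barcode sequences occurred in cells of more than one sample, 0 of them within the same load.

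The leading genes of the class were genes of replication and mitosis, as its name says. These genes chose the class, so their values are a description. Against all other cells, and with 1 added to both levels for this ranking alone, UMIs scaled to a common total of 1e6 (CPM) were 13.7-fold higher for Pbk, a mitotic kinase (61.6 against 3.57 CPM), 11.4-fold for the histone gene Hist1h2ap (1182 against 102.5 CPM), 11.0-fold for Tk1, which salvages thymidine, and 10.3-fold for Top2a, the topoisomerase that untangles sister chromatids (334.3 against 31.4 CPM). Histone genes are near-identical copies, and their reads may be split between family members. Macrophage genes were present too: the 12 genes of the macrophage identity list summed to 13083 CPM in NTT and 28830.5 in RTT, with 26605.7 in RTT_ROSA26 and 15467.5 in RTT_PTGS12KO, with NTT and the knockout below the other pair. In NTT against RTT, 3 of these genes were 2-fold lower and 1 was 2-fold higher, where 4.71% and 6.91% of all genes tested were. In RTT_PTGS12KO against RTT_ROSA26, 2 of the 11 at 50 CPM or more were 2-fold lower and 0 higher, where 1.94% and 3.91% of all genes were. On the list stands Csf1r, the receptor for the macrophage growth factor M-CSF, at 315.8, 427.5, 465.2 and 385.9 CPM in the same order.

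Among the defining markers, Mki67, the proliferation antigen, stood at 86.3 CPM in NTT (71.7 to 103) and 187.2 in RTT (181 to 193.6), with 145.0 in RTT_ROSA26 (141.4 to 148.7) and 166.0 in RTT_PTGS12KO (162.1 to 170.0). Top2a stood at 242.1, 350.4, 282.5 and 384.3 CPM in that order. NTT was thus lowest for both, and the resistant tumours lay within a factor of 2 of each other. Stmn1, which destabilizes microtubules, stood at 350.9, 529.1, 466.7 and 493.4 CPM. Ube2c, the ubiquitin-conjugating enzyme of the anaphase-promoting complex, stood at 160.0, 301.3, 212.8 and 245.4 CPM, and Birc5, the survivin subunit of the chromosomal passenger complex, at 140.3, 289.9, 234.1 and 243.5 CPM. In TAM_C1q cells of the resistant tumours Mki67 was at 9.36 to 11.6 CPM and Top2a at 5.29 to 8.98 CPM, so that the dividing class stood more than 10-fold above its neighbour for both.

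Not every TAM_cycling cell carried these markers. After thinning, 3024 of 4572 cells, or 66.1%, had 3 or more UMIs over the 5 defining markers. The share was 44.3% in NTT (33.1 to 55.9%, 35 of 79 cells) and 64.9% in RTT (561 of 865), with 63.4% in RTT_ROSA26 (1146 of 1808) and 70.4% in RTT_PTGS12KO (1282 of 1820). In Monocyte_1, a non-dividing class taken as the background, 0.624% of 7377 cells reached that mark, against 6.08% of 6995 TAM_C1q cells. The median depth of Monocyte_1 cells ran from 6550 to 9667 UMIs across the samples, and thinning set every cell compared to the same number. The class thus also held cells with few of these transcripts, and their share was highest in NTT.

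Promoters of cell cycle genes were searched for letters known from such promoters, and of the 4 defining markers with a promoter in the table (Stmn1 had none there) 3 held a CHR match, 3 a CCAAT box and 0 an E2F match between 250 bases before and 50 after the start. Genes of DNA replication often hold an E2F site (searched as TTTCCCGC or TTTGGCGC), and genes of mitosis often pair a cell cycle homology region, or CHR (TTTGAA or TTCGAA), with CCAAT boxes. The windows below are the 130 bases before the start of 1 replication gene, Mcm6, a subunit of the helicase that opens the origin, and of 3 mitotic genes, the markers Top2a and Mki67 and the spindle motor Kif11. Sequences are from RefSeq on the build GRCm38.p6, written 5′ to 3′ along the gene, with capitals for a match to any of these motifs on either strand. The windows are Mcm6 at chr1:128359706-128359835 on the minus strand, Top2a at chr11:99024190-99024319 on the minus strand, Mki67 at chr7:135716380-135716509 on the minus strand and Kif11 at chr19:37376252-37376381 on the plus strand, each upstream of the gene and free of annotated exons.
Mcm6: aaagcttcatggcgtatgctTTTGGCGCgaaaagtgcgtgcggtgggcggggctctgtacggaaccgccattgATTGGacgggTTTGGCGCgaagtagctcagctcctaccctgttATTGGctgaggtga
Top2a: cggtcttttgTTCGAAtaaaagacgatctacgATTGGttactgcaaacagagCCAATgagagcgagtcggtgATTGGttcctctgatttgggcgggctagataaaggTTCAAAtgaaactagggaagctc
Mki67: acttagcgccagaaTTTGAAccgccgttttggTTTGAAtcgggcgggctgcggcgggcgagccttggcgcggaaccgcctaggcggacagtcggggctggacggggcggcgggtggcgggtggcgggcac
Kif11: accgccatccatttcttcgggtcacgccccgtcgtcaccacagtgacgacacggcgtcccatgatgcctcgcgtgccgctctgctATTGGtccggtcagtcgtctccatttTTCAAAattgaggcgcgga

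Within the printed bases Mcm6 held 2 E2F matches and 2 CCAAT boxes, Top2a held 2 CHR matches with 3 CCAAT boxes, Mki67 held 2 CHR matches and no CCAAT box, and Kif11 held 1 of each. The shares that follow were counted over the full windows of the table, from 250 bases before to 50 after the start, of which the printed bases are a part. Over promoters of the replication genes, which spanned 47 starts of 41 genes, 25.5% held an E2F match and 14.9% a CHR match. Over promoters of the mitotic genes, 55 starts of 49 genes, the order was turned round, with 10.9% for E2F and 65.5% for CHR. Of all 32851 promoters of the same length, 1.56% held the E2F letters, 19.2% a CHR match and 37.4% a CCAAT box, and 7.52% held both of the latter, which 45.5% of the mitotic promoters did. A match is a run of letters and not evidence of binding. The list of licensing genes, with E2F letters in 7 of 13 promoters, and the spindle list, with CHR letters in 17 of 23, are those whose levels are given separately below.

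The share of TAM_cycling cells depended on what it was a share of. Of all CD45+ cells they were 0.956% in NTT (0.757 to 1.19%, 79 of 8266 cells) and 11.0% in RTT (10.3 to 11.7%, 873 of 7970), with 26.8% in RTT_ROSA26 (25.8 to 27.9%, 1834 of 6836) and 17.8% in RTT_PTGS12KO (17.1 to 18.6%, 1832 of 10296). On the log2 scale NTT fell below RTT by 3.52 (-3.87 to -3.19) and RTT_PTGS12KO below RTT_ROSA26 by 0.59 (-0.69 to -0.50), and RTT_ROSA26 lay 1.29 above RTT (1.18 to 1.41). By this measure NTT had the fewest dividing macrophages and the control-edited resistant tumour the most.

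Of the macrophage classes alone (TAM_C1q, TAM_Spp1, TAM_H2Ab1, Ctsk_Macro and TAM_cycling itself, with a further class named Macro, of 21 to 130 cells a sample, left aside), the order was another one. TAM_cycling made up 25.6% of macrophages in NTT (20.9 to 30.9%, 79 of 308 cells) and 13.0% in RTT (12.2 to 13.8%, 873 of 6734), with 30.6% in RTT_ROSA26 (29.4 to 31.8%, 1834 of 5993) and 35.2% in RTT_PTGS12KO (33.9 to 36.5%, 1832 of 5207). NTT was now 0.98 above RTT on the log2 scale (0.63 to 1.32), RTT_PTGS12KO 0.20 above RTT_ROSA26 (0.11 to 0.30), and RTT_ROSA26 1.24 above RTT (1.12 to 1.36). The direction of the first 2 comparisons thus turned with the denominator, and only the difference between the control-edited and the unedited resistant tumour kept both its sign and its size. With monocytes counted in as well, the shares were 1.14%, 12.03%, 29.9% and 19.9%, in the order of the shares of all cells. NTT held 308 cells of these classes, so that its share within macrophages rests on few cells.

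**Figure D1:**
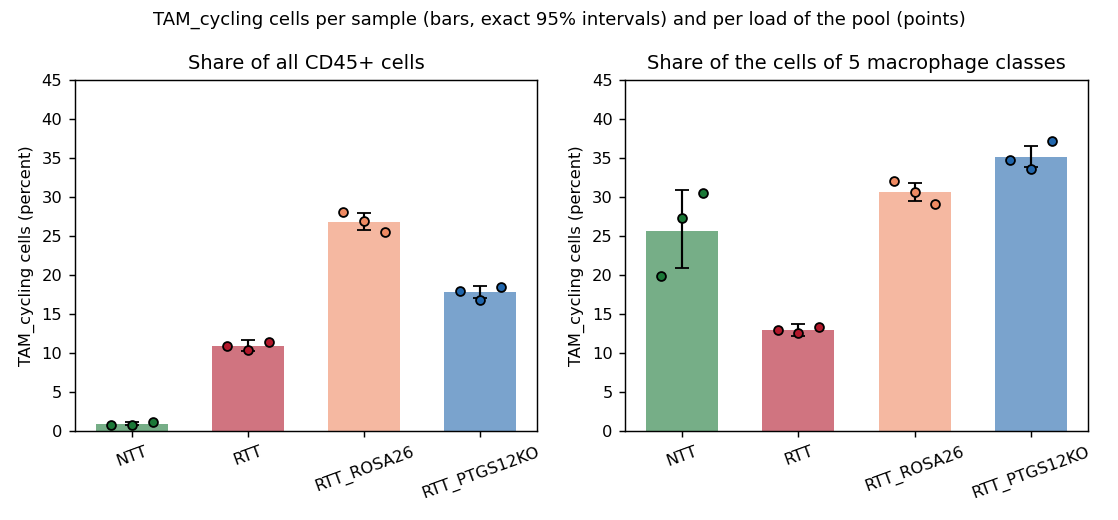
TAM_cycling cells in percent of all CD45+ cells (left) and of the macrophage classes (right) in NTT, RTT, RTT_ROSA26 and RTT_PTGS12KO; bars give the share of the sample, error bars the exact 95% interval, and points the 3 loads of the pool. NTT is lowest on the left (0.956%) and above RTT on the right (25.6% against 13.0%).

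The loads of the same pool are technical repeats and not tumours. Their spread in percentage points was widest in RTT_ROSA26 for shares of CD45+ cells and in NTT for shares of macrophages. Of all CD45+ cells TAM_cycling took 0.838 to 1.16% in NTT and 10.5 to 11.4% in RTT, with 25.5 to 28.1% in RTT_ROSA26 and 16.9 to 18.5% in RTT_PTGS12KO, and no range met another. Of macrophages the ranges were 19.8 to 30.6% in NTT and 12.5 to 13.4% in RTT, with 29.2 to 32.1% in RTT_ROSA26 and 33.6 to 37.2% in RTT_PTGS12KO. Here only NTT and RTT_ROSA26 overlapped.

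In the resistant tumours most dividing immune cells were TAM_cycling, and in NTT they were not. TAM_cycling held 63.5% of the marker-positive cells of RTT (561 of 884), 78.5% in RTT_ROSA26 (1146 of 1460) and 73.8% in RTT_PTGS12KO (1282 of 1738), but 12.5% in NTT (35 of 281). There 162 of the positive cells were NK cells and 47 were CD8 T cells. Among positive cells of RTT_PTGS12KO, 171 were NK cells, 96 TAM_C1q, 35 Monocyte_1 and 32 CD8 T cells. Of all UMIs over the S and G2/M lists, the share in TAM_cycling cells was 5.62% in NTT and 48.0% in RTT, with 71.1% in RTT_ROSA26 and 59.3% in RTT_PTGS12KO.

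Position within the cycle was read from UMIs over 43 genes of S phase and 54 genes of G2 and M phase. The median thinned TAM_cycling cell held 12, 11, 13 and 12 S-phase UMIs in NTT, RTT, RTT_ROSA26 and RTT_PTGS12KO, and 13, 25, 17 and 25 G2/M UMIs. Replication transcripts were thus level across the tumours, and mitotic ones were not. TAM_C1q cells of RTT, by comparison, held a median of 2 and 4. Cells with more G2/M than S UMIs were 46.8% of the class in NTT (35.5 to 58.4%, 37 of 79) and 58.5% in RTT (55.1 to 61.8%, 506 of 865), with 51.4% in RTT_ROSA26 (49.1 to 53.8%, 930 of 1808) and 63.7% in RTT_PTGS12KO (61.5 to 66.0%, 1160 of 1820). The same share was 63.0 to 69.3% in TAM_C1q and 66.5 to 69.5% in TAM_Spp1 cells of the resistant tumours and in both classes highest in RTT_PTGS12KO, at medians of 2 or 3 S and 4 G2/M UMIs, with 52.0 to 58.2% of those cells near equality, so the share alone does not mark division. Without thinning the shares in TAM_cycling were 44.3%, 55.9%, 48.7% and 61.2%. Between 11.0 and 16.5% of the cells lay within 2 UMIs of equality, and the split is a cut across a range and not a pair of cell types. The study had regressed the difference of the G2/M and S scores out of its embedding, which bears on how the class was drawn and not on these counts.

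**Figure D2:**
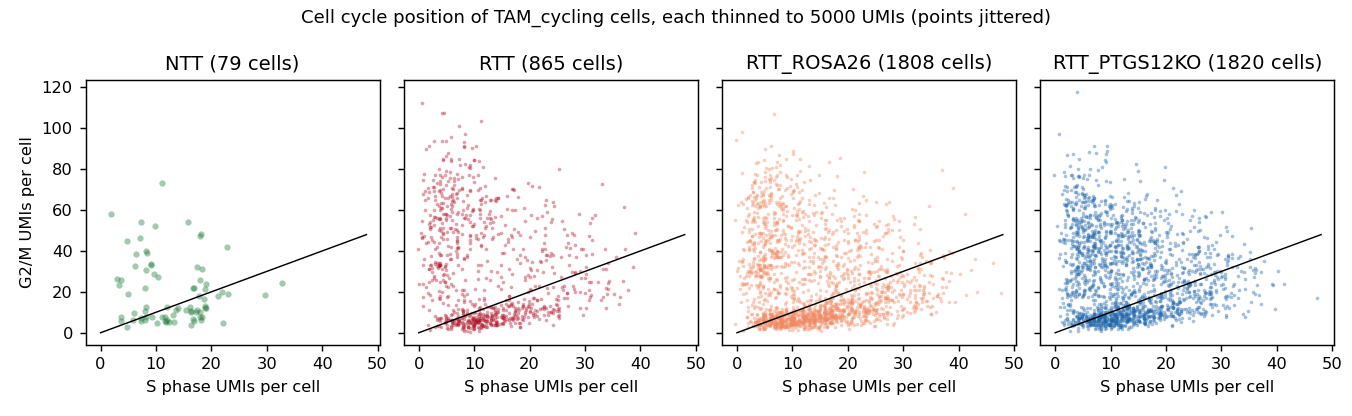
S-phase UMIs (horizontal) against G2/M UMIs (vertical) of each TAM_cycling cell thinned to 5000 UMIs, 1 panel for each sample, with a diagonal where both are equal. Cells above the diagonal were 46.8% in NTT and 58.5% in RTT, with 51.4% in RTT_ROSA26 and 63.7% in RTT_PTGS12KO.

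Gene by gene, the comparison across the class was made on summed UMIs of genes at 50 CPM or more in the higher sample, and a gene was counted where it differed by 2-fold or more. Of 2910 genes, 6.91% were at least 2-fold higher in NTT than in RTT and 4.71% lower. Of 2841 genes, 3.91% were higher and 1.94% lower in RTT_PTGS12KO than in RTT_ROSA26. RTT_ROSA26 and RTT differed least, with 0.0723% of 2767 genes higher (2 genes) and 0.687% lower (19 genes). The median gene differed by -0.04, -0.06 and 0.04 on the log2 scale in these 3 comparisons, and the medians of the gene lists below are to be read against it.

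Licensing and DNA synthesis genes barely differed between the tumours. Of the 17 licensing genes (origin recognition, Mcm helicase and loading factors), 9 passed the minimum and 0 differed by 2-fold in any comparison, with medians of -0.08, -0.20 and 0.15 in the order above. Mcm6 stood at 107.4 CPM in NTT and 126.3 in RTT, with 151.7 in RTT_ROSA26 and 119.4 in RTT_PTGS12KO. Pcna, the sliding clamp of the polymerases, stood at 230.2, 252, 301 and 287.7 CPM. The DNA synthesis list had medians of -0.11, -0.08 and 0.16. The nucleotide supply list had medians of -0.45, -0.06 and 0.10, with 1 of 8 genes higher in NTT than in RTT by any amount. In it 1 gene was 2-fold lower in NTT, Rrm2, the regulated subunit of ribonucleotide reductase, at 38.6 CPM against 79.9 in RTT.

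Mitotic genes were lower in the few cells of NTT. The G2/M list had a median of -0.78 over 35 genes, of which 8 were 2-fold lower than in RTT, 0 were 2-fold higher and 2 were higher by any amount. The S-phase list, over 20 genes, had a median of -0.13. Cenpf, a kinetochore protein of late G2, stood at 35.8 CPM in NTT and 131.1 in RTT, with 80.9 in RTT_ROSA26 and 92.9 in RTT_PTGS12KO, a log2 ratio of -1.87 for NTT against RTT (-2.30 to -1.47). Hmmr, which guides spindle assembly, stood at 23.9, 82.1, 61.6 and 60.9 CPM, Plk1, the kinase of mitotic entry, at 19.7, 53.9, 39.5 and 37.9 CPM, and Kif11 at 23.9, 63.5, 49.9 and 59.1 CPM. In each of these NTT was lowest and RTT highest. Of the spindle and cytokinesis list 6 of 18 genes were 2-fold lower in NTT and 0 higher (median -0.84), and of the kinetochore list 1 of 6 was lower (median -0.89).

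Between the edited resistant tumours the same lists lay close together. For RTT_PTGS12KO against RTT_ROSA26 the spindle list had a median of 0.17 over 14 genes, the kinetochore list 0.12 over 5 and the G2/M list 0.20 over 31, with 26 of the 31 higher by some amount and 0 by 2-fold. Top2a lay 0.44 higher (0.41 to 0.48), and the other 4 markers between 0.06 and 0.21 higher. For RTT_ROSA26 against RTT the G2/M list had a median of -0.34 over 35 genes and the S-phase list 0.09 over 20. Summed over all 54 genes, the G2/M list took 4454 CPM of the class in NTT and 6379 in RTT, with 5163 in RTT_ROSA26 and 5919 in RTT_PTGS12KO, which puts the knockout between the other resistant tumours.

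Cyclins differed among themselves. Ccnd1, a D-type cyclin that answers growth signals, stood at 251.9 CPM in NTT and 113.3 in RTT, with 166.7 in RTT_ROSA26 and 204 in RTT_PTGS12KO, Ccnd2 at 169.8, 61.5, 49.6 and 52.7 CPM and Ccnd3 at 67.4, 42.1, 33.9 and 55.1 CPM. NTT was highest for each, and for Ccnd1 and Ccnd2 by 1.15 (0.99 to 1.32) and 1.47 (1.26 to 1.67) against RTT. Ccnb1, the mitotic cyclin B1, stood at 39.3, 85.2, 63.7 and 65.6 CPM, and its kinase Cdk1 at 86.3, 174.4, 153.8 and 139.4 CPM. Both were 2-fold lower in NTT than in RTT, and Ccnb2, at 58.9, 106.1, 72.1 and 79.1 CPM, and Ccna2, at 50.5, 94.7, 82.1 and 92.1 CPM, were lowest in NTT too. Ccne1 and Ccne2, cyclins of the step into S phase, stayed under 50 CPM in every sample.

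Among genes that hold the cycle back, the shift in NTT and the knockout was uneven. The list of inhibitors and quiescence genes had medians of 0.52 over 11 genes for NTT against RTT and 0.61 over 10 for RTT_PTGS12KO against RTT_ROSA26. In each only 1 gene was 2-fold higher, where 6.91% and 3.91% of all genes were, and nothing is read from that count. It was Klf4, a transcription factor linked to growth arrest, at 160.7, 74.4, 80.0 and 182.7 CPM in NTT, RTT, RTT_ROSA26 and RTT_PTGS12KO. In TAM_C1q the list had a median of 0.43 over 9 genes for RTT_PTGS12KO against RTT_ROSA26, with 2 of them 2-fold higher. Cdkn1a, the p21 inhibitor of cyclin-dependent kinases, stood at 363.5, 253.4, 219.3 and 397.5 CPM, and Btg2, an antiproliferative protein, at 186.7, 96.9, 86.3 and 147.4 CPM. Summed over its 18 genes the list stood at 2884, 2580, 2244 and 2660 CPM. For Klf4, Cdkn1a and Btg2 the 2 tumours at the top were RTT_PTGS12KO and NTT. Maf, a transcription factor of mature macrophages, had the other order at 173.3, 452, 418.4 and 235.2 CPM and was with Cdkn2c, another kinase inhibitor, 1 of 2 genes of the list that were 2-fold lower in NTT.

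The dividing cells differed in the class they resembled when cell cycle genes were set aside. Each cell was assigned to the non-dividing monocyte or macrophage class whose profile it was nearest to. In NTT 50.6% of TAM_cycling cells (39.1 to 62.1%, 40 of 79) lay nearest to Monocyte_1 and 41.8% to TAM_H2Ab1, the macrophages rich in MHC class II. In RTT 73.2% lay nearest to TAM_C1q and 16.3% to TAM_Spp1, and in RTT_ROSA26 88.7% and 8.07%. RTT_PTGS12KO was the most mixed, with 32.6% nearest to TAM_C1q, 26.8% to TAM_H2Ab1, 19.4% to TAM_Spp1 and 19.2% to Monocyte_1. Non-dividing cells put through the same procedure returned to their own class in 63.2 to 93.7% of cases, depending on the class. NTT held 12 TAM_C1q and 20 TAM_Spp1 cells, against 4977 of Monocyte_1 and 192 of TAM_H2Ab1. The TAM_C1q and TAM_Spp1 profiles thus rested almost wholly on the other tumours. The assignment cannot separate resemblance to a class from features shared by all cells of NTT. No conclusion on the macrophage label of its cells is drawn. Over 2000 genes the summed profile of the 79 NTT cells correlated with TAM_H2Ab1 at r = 0.95 and with Monocyte_1 at 0.93. With TAM_C1q the value was 0.799, and these values share the libraries and are a description.

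**Figure D3:**
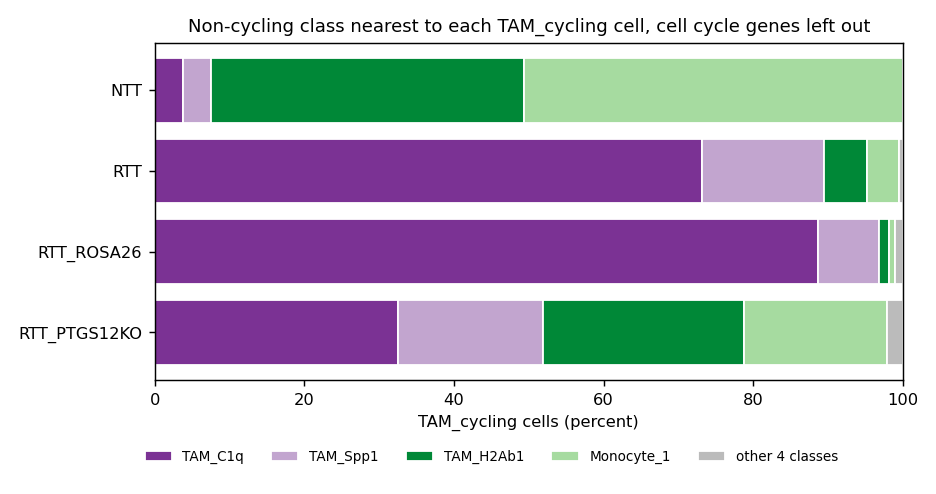
Percent of TAM_cycling cells in each sample (stacked bars) by the non-dividing class whose profile was nearest once cell cycle genes were left out. TAM_C1q takes 73.2% in RTT and 88.7% in RTT_ROSA26, against 32.6% in RTT_PTGS12KO and 3.8% in NTT.

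Position in the cycle varied little with this resemblance in the knockout. The share of cells with more G2/M than S UMIs in RTT_PTGS12KO was 61.7% of those nearest to TAM_C1q, 63.7% for Monocyte_1, 64.3% for TAM_Spp1 and 65.6% for TAM_H2Ab1, with intervals that overlap. In RTT the same shares ran from 56.3 to 62.2%. The widest gap was in NTT, at 35.0% of 40 cells nearest to Monocyte_1 (20.6 to 51.7%) and 63.6% of 33 nearest to TAM_H2Ab1 (45.1 to 79.6%), and these intervals overlap too.

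Genes of the resident-like, complement-rich macrophage were lower in the dividing cells of NTT and RTT_PTGS12KO. All 17 genes of this list passed the minimum, and 12 were 2-fold lower in NTT than in RTT (median -1.97), 10 in RTT_PTGS12KO than in RTT_ROSA26 (median -1.06) and 0 in RTT_ROSA26 than in RTT (median 0.00). Apoe, the lipid carrier of lipid-laden macrophages, stood at 3213 CPM in NTT and 15726.7 in RTT, with 13655.5 in RTT_ROSA26 and 5034 in RTT_PTGS12KO. Pf4, a chemokine of resident macrophages, stood at 565.6, 3279, 2659 and 972.7 CPM, Mrc1, the mannose receptor CD206, at 193, 917.7, 859 and 413.3 CPM, and Gas6, the ligand of Mertk and Axl, at 18.9, 102.5, 133.5 and 36.5 CPM. RTT and RTT_ROSA26 were the highest pair for each. C1qa, a subunit of complement C1q, differed less, at 2157, 2944, 2951 and 2057 CPM.

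Genes of the Spp1 macrophage did not follow that order. Spp1, or osteopontin, stood at 1208 CPM in NTT and at 3596, 3767 and 4023 in RTT, RTT_ROSA26 and RTT_PTGS12KO. This list was lower in NTT, with 4 of 13 genes 2-fold lower, 1 higher (Mmp12, the macrophage elastase, at 218.9 against 42.7 CPM) and a median of -0.72, and it was level between the edited tumours, with a median of 0.09.

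Monocyte genes ran the other way. Summed over all 10 genes of the list, with no minimum, the level was 6091 CPM in NTT and 596.5 in RTT, with 315.7 in RTT_ROSA26 and 2148 in RTT_PTGS12KO. Each of the 5 genes that passed the minimum was 2-fold higher in NTT than in RTT, and likewise in RTT_PTGS12KO than in RTT_ROSA26, with medians of 3.41 and 2.68, but a gene such as Ly6c2 passed only through the sample in which it was high, so neither the count nor the medians add to the sums. Ly6c2, the surface protein of inflammatory monocytes, stood at 901.7, 26.0, 21.8 and 139.8 CPM, and Plac8 at 1343, 51.4, 40.3 and 259.7 CPM. Ccr2, the receptor that brings monocytes out of the marrow, stood at 252.6, 102.4, 112.7 and 277.6 CPM, so that NTT and the knockout were nearly equal for it and far apart for the other pair. Ly6c2 has close paralogs, and its counts may share reads with them.

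The widest gap between the edited tumours was in genes that answer interferon-γ, the cytokine that T and NK cells make. Summed over 20 genes of the type II interferon list, with no minimum, TAM_cycling cells held 3443 CPM in NTT (3347 to 3540) and 647.2 in RTT (635.5 to 658.9), with 227.4 in RTT_ROSA26 (222.9 to 232.0) and 2690 in RTT_PTGS12KO (2674 to 2706). Across loads of the pool RTT_PTGS12KO spanned 2555 to 2771 CPM, RTT 616.6 to 685.2 and RTT_ROSA26 212.3 to 249.3. All 16 genes that passed were 2-fold higher in NTT than in RTT (median 2.52), all 15 in RTT_PTGS12KO than in RTT_ROSA26 (median 3.60), and all 4 were 2-fold lower in RTT_ROSA26 than in RTT (median -1.88). A gene could pass through its high sample alone, which is why the summed level stands first.

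Cxcl9, the chemokine that draws CXCR3-bearing T cells, stood at 563.5 CPM in NTT and 44.3 in RTT, with 24.1 in RTT_ROSA26 and 456.7 in RTT_PTGS12KO. Iigp1, a GTPase that attacks the vacuoles of pathogens, stood at 305.3, 52.1, 10.9 and 346 CPM, a log2 ratio of 4.99 between the edited tumours (4.85 to 5.12). Irf1, the transcription factor that carries the first wave of the response, stood at 223.1, 93.2, 29.7 and 225.3 CPM. The guanylate-binding protein gene Gbp2 stood at 383.1, 101.3, 23.5 and 519.2 CPM and Gbp2b at 297.5, 7.74, 1.36 and 72.7 CPM. In every one of these RTT_ROSA26 was lowest, and RTT_PTGS12KO was above NTT for Iigp1 and Gbp2, level with it for Irf1 and below it for Cxcl9 and Gbp2b.

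The promoters of this list were searched for 2 interferon motifs once its levels were known: the interferon-stimulated response element, or ISRE (GAAA and again GAAA, with 2 bases of any kind between), and the gamma-activated site, or GAS (TTCNNNGAA). The 3 windows below are examples, of which Gbp7 and Igtp hold both motifs and Socs1 holds 2 ISRE matches and 0 GAS matches, with capitals for either motif on either strand, from RefSeq on GRCm38.p6. They are the 130 bases before the starts of Gbp7 at chr3:142530206-142530335 on the plus strand, Igtp at chr11:58199426-58199555 on the plus strand and Socs1 at chr16:10785537-10785666 on the minus strand, and 0 annotated exons overlap them.
Gbp7: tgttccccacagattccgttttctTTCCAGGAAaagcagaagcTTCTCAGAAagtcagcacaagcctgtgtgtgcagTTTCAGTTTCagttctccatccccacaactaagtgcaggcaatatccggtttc
Igtp: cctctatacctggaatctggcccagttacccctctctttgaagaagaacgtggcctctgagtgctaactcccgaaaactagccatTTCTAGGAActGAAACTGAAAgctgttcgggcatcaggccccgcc
Socs1: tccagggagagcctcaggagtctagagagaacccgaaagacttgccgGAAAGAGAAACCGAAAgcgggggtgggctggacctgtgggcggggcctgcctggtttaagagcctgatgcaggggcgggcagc

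Of 19 promoters of 17 genes on the type II list, 63.2% held the ISRE letters and 42.1% the GAS letters, against 3.44% and 8.30% of all promoters, over the same full windows. The ISRE letters were not particular to that list: of 19 promoters of the type I list, 47.4% held them, and 15.8% held the GAS letters. The 6 promoters of MHC class II genes held 0 ISRE matches. Gbp7, another guanylate-binding protein, stood in TAM_cycling cells at 244.2 CPM in NTT and 120.5 in RTT, with 46.1 in RTT_ROSA26 and 194.8 in RTT_PTGS12KO. Igtp, a GTPase of the Iigp1 family, stood at 137.5, 24.6, 10.3 and 95.6 CPM, and Socs1, which shuts off signalling from cytokine receptors, at 68.8, 13.4, 5.98 and 72.8 CPM. All 3 were lowest in RTT_ROSA26.

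MHC class II and type I interferon genes showed part of this pattern. H2-Ab1, a chain of the class II molecule, stood at 4843 CPM in NTT and 626.5 in RTT, with 347.3 in RTT_ROSA26 and 1740 in RTT_PTGS12KO. Cd74, its invariant chain, stood at 1222, 212.9, 98.5 and 523.9 CPM, and Ciita, the switch of class II transcription, at 70.9, 6.98, 3.21 and 37.4 CPM. Summed over the 8 class II genes the level was 15817.6, 2392, 1326 and 6480 CPM. Isg15, a ubiquitin-like protein of the type I response, stood at 473, 41.0, 23.8 and 109.2 CPM, and Irf7, which amplifies it, at 283.5, 19.8, 12.5 and 38.6 CPM. Summed over the 23 type I genes, with no minimum, the level was 5280, 1122, 1007 and 1909 CPM, a log2 ratio of 0.92 between the edited tumours. Of the type I genes that passed, 15 of 16 were 2-fold higher in NTT than in RTT (median 2.55), and 5 of 7 in RTT_PTGS12KO than in RTT_ROSA26 (median 1.74). A gene could pass through its high sample alone, so these counts and medians add nothing to the sums. Bst2, which tethers budding virus, stood at 658, 333, 370 and 358 CPM and separated NTT alone. For RTT_ROSA26 against RTT 3 type I genes passed, with a median of 0.03 and 0 past 2-fold, and with a minimum of 10 CPM the median was -0.51.

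**Figure D4:**
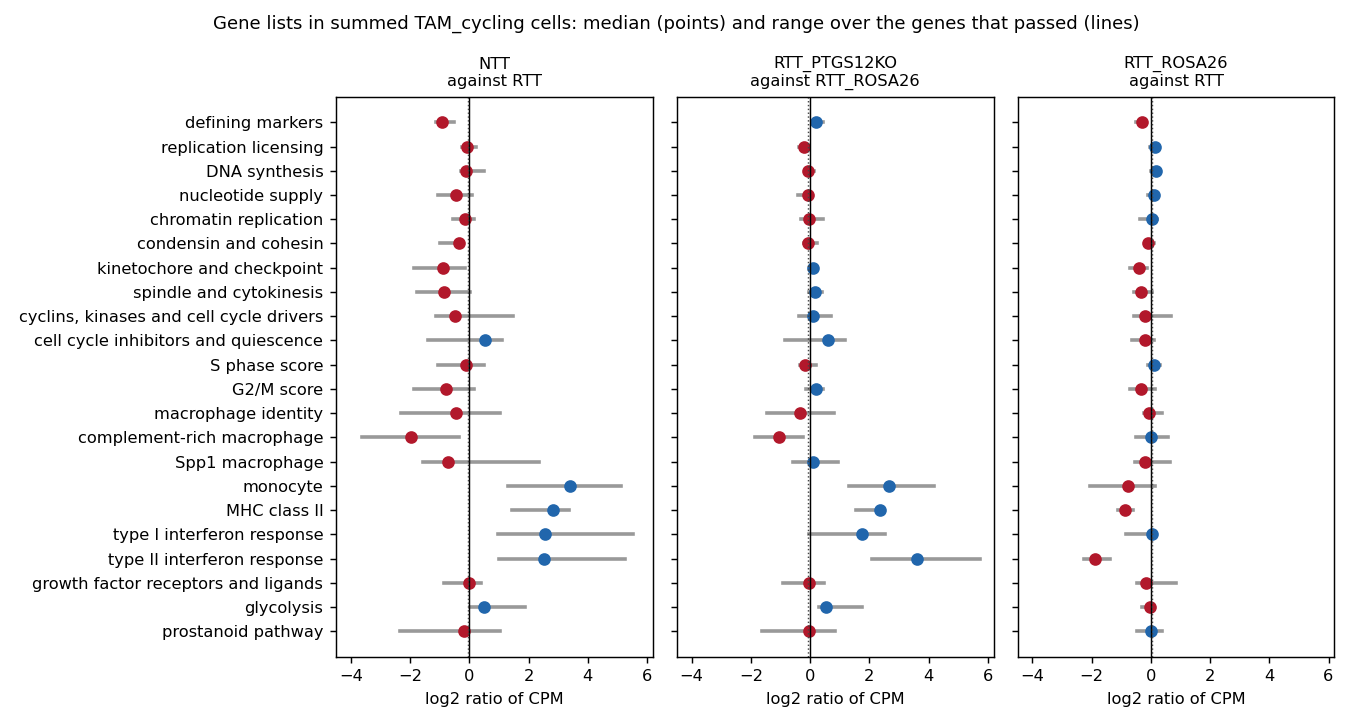
Median log2 ratio of each gene list in TAM_cycling cells (points, blue above 0 and red below) with the range of its genes (lines) for the 3 comparisons, and a dotted line at the median of all genes tested. The type II interferon list stands at 2.52, 3.60 and -1.88, and the licensing list at -0.08, -0.20 and 0.15.

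The interferon-γ genes moved with the resemblance of the cells. Between the edited tumours they also differed among cells nearest to TAM_C1q or to TAM_Spp1. With interferon and class II genes left out of the assignment, TAM_cycling cells nearest to TAM_C1q held 441.4 CPM of the type II list in RTT (629 cells), 182.4 in RTT_ROSA26 (1620 cells) and 1015 in RTT_PTGS12KO (581 cells). Cells nearest to TAM_Spp1 held 382.8, 216 and 1401 CPM in the same tumours. Those nearest to TAM_H2Ab1 held 3020 CPM in NTT, 2864 in RTT and 4110 in RTT_PTGS12KO, and those nearest to Monocyte_1 held 4106, 2377 and 4566. For the type II list the knockout was thus above its control among cells nearest to TAM_C1q and to TAM_Spp1. RTT_ROSA26 held under 30 cells nearest to the other classes, which could not be compared. Between NTT and RTT the intervals overlapped among cells nearest to TAM_H2Ab1 (2877 to 3167 and 2767 to 2964 CPM). The class II list was not uniform in this: cells nearest to TAM_C1q held 863.1 CPM of it in RTT_ROSA26 and 1829 in RTT_PTGS12KO, but those nearest to TAM_Spp1 held 5245 and 5007. Among cells nearest to TAM_C1q by the full assignment, the median of RTT_PTGS12KO against RTT_ROSA26 was 0.62 for class II, 1.12 for monocyte, 0.54 for type I and -0.35 for complement-rich genes, against 2.37, 2.68, 1.74 and -1.06 over the whole class. Genes of these lists helped to decide which cells were nearest to TAM_C1q in that assignment, so the smaller values are partly fixed by the choice of cells and are a description.

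**Figure D5:**
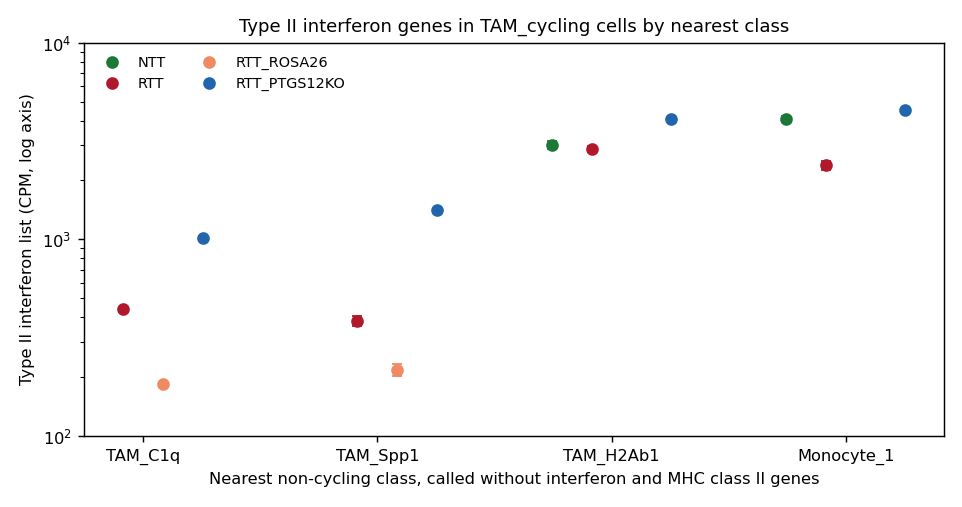
Summed CPM of the 20 type II interferon genes (vertical, log scale) in TAM_cycling cells of each sample, split by the nearest non-dividing class called without interferon and MHC class II genes; error bars are exact 95% limits. Among cells nearest to TAM_C1q the values are 441.4 CPM in RTT, 182.4 in RTT_ROSA26 and 1015 in RTT_PTGS12KO.

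Cell by cell, the share of thinned TAM_cycling cells with 3 or more UMIs of the type II list was 98.7% in NTT and 29.9% in RTT, with 8.24% in RTT_ROSA26 and 78.1% in RTT_PTGS12KO. Among NK cells the share was 66.7% in NTT and 54.0% in RTT_PTGS12KO, and among CD8 T cells 65.9% and 55.6%. A high share is thus not particular to macrophages. Whether RNA carried over from other cells adds to any of these shares was not tested. By position in the cycle, cells with more G2/M than S UMIs held 2708 CPM in RTT_PTGS12KO and the others 2651, and in RTT_ROSA26 the values were 230.8 and 223.2. In RTT they were 620.3 and 684.2, and in NTT 3090 and 3826. The share of thinned cells with 3 or more UMIs ran the other way in RTT, at 33.6% (29.5% to 37.9%) of cells with more G2/M than S UMIs and 24.8% (20.4% to 29.6%) of the others, so the measures gave no single order there. Monocyte_1 cells held 5625, 5371, 6075 and 5961 CPM in NTT, RTT, RTT_ROSA26 and RTT_PTGS12KO, a narrow range set beside the span from 227.4 to 3443 in TAM_cycling. Neutrophils held 4298, 1957, 698.2 and 4842 CPM, a span in which RTT_ROSA26 was again lowest. TAM_C1q cells held 495.3 CPM in RTT, 240.0 in RTT_ROSA26 and 1222 in RTT_PTGS12KO.

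Set beside TAM_C1q cells over the genes measured in both, RTT_PTGS12KO against RTT_ROSA26 gave a median of 3.58 in TAM_cycling and 2.65 in TAM_C1q for 6 type II genes, 2.37 and 1.33 for 6 class II genes, and 2.60 and 1.11 for 4 monocyte genes. For the 17 complement-rich genes the medians were -1.06 and -0.41. For 12 glycolysis genes they were 0.52 and 0.54, and for all 2476 shared genes -0.06 in both. Few immune genes passed the minimum in both classes, and a gene could pass through its high sample alone, so the ratio of the levels summed over each whole list, with no minimum, was set beside these. On the log2 scale it was 3.56 in TAM_cycling and 2.35 in TAM_C1q for type II, 2.29 and 1.23 for class II, 2.77 and 1.22 for monocyte, -0.94 and -0.62 for complement-rich and 0.45 and 0.46 for glycolysis genes. No test of the difference between the classes was made, and the mixed resemblance of the knockout cells moves with it.

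Glycolysis genes were higher in NTT and in the knockout. All 12 that passed were higher by some amount in both comparisons, with medians of 0.50 and 0.52, and 2 and 1 of them by 2-fold. Pfkp, the platelet form of phosphofructokinase, stood at 131.9 CPM in NTT and 36.1 in RTT, with 37.4 in RTT_ROSA26 and 126 in RTT_PTGS12KO. Slc2a1, the glucose transporter GLUT1, stood at 82.8, 35.8, 34.4 and 65.8 CPM, and Ldha, which makes lactate, at 969.8, 669.1, 678.5 and 954 CPM. RTT and RTT_ROSA26 were alike for all 3, with a list median of -0.03 over 10 genes.

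Genes of prostanoid synthesis in the macrophages themselves were also measured, since the knockout touched the cancer cells. Ptgs1, the constitutive cyclooxygenase, stood in TAM_cycling at 18.2 CPM in NTT and 92.2 in RTT, with 70.1 in RTT_ROSA26 and 22.6 in RTT_PTGS12KO, a log2 ratio of -2.34 for NTT against RTT and -1.63 between the edited tumours. Ptgs2, the inducible form, ran the other way at 310.9, 188.7, 136.6 and 247 CPM. Hpgds, the synthase of prostaglandin D2, stood at 47.0, 148.1, 172.2 and 59.2 CPM, and like Ptgs1 was lower in NTT and RTT_PTGS12KO than in the other tumours. Of the receptors for prostaglandin E2, Ptger4 stood at 20.4, 10.7, 16.6 and 19.9 CPM and Ptger2 at 2.81, 7.85, 4.88 and 7.95 CPM, both low. The synthase Ptges3 was level at 192.3, 212.7, 227.1 and 220.0 CPM.

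Of 17 genes of growth factors and their receptors, 6 or 7 passed the minimum in each comparison and 0 of those differed 2-fold. With the shares over all genes given above, so few genes could be expected to give no call, and nothing is read from that count. Il4ra, the receptor chain for interleukin-4, which can drive macrophages to divide, stood at 131.2, 235.4, 212.1 and 166.6 CPM. Csf1, the gene of M-CSF, was low at 2.81, 26.0, 8.78 and 5.33 CPM, and Igf1 stood at 2.10, 16.4, 22.0 and 3.81 CPM.

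Ranked by the size of the difference among genes at 100 CPM or more, the leading genes of NTT against RTT were Gbp2b, Ly6c2, Dnase1l3, a secreted nuclease (167 against 5.11 CPM), Ly6i (164.2 against 5.27 CPM) and Plac8. At the other end were Npl, which breaks down sialic acid (14.0 against 174.3 CPM), Ctla2a, an inhibitor of cysteine proteases (20.4 against 166.5 CPM), F13a1, a chain of coagulation factor XIII (121.4 against 705.2 CPM), Pf4 and Gas6. Between the edited tumours Iigp1, Gbp4, another guanylate-binding protein (113 against 4.67 CPM), Gbp2, Cxcl9 and Ly6a, the surface protein Sca-1 (1148 against 63.2 CPM), led in the knockout. Ctla2a again stood low there (21.5 against 235.9 CPM), with Gas6, Syngr1 (44.3 against 158 CPM), Ctla2b (81.1 against 274 CPM) and Scoc (51.0 against 166.8 CPM). Genes of the Gbp, Ly6 and Ctla2 families are close copies, and reads may be split among them.

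RTT_ROSA26 and RTT, resistant lines with and without the control edit, differed in the fewest genes, and of the 19 that were 2-fold lower in RTT_ROSA26 4 were on the type II interferon list. Ch25h, which makes 25-hydroxycholesterol (119.4 against 52.3 CPM), and Ckb, a creatine kinase (215.2 against 102 CPM), were the 2 genes that were 2-fold higher in RTT_ROSA26. Ccl2 (1440 against 787.9 CPM) and Ccl7 (825 against 445.4 CPM), which draw monocytes, and the microglial gene Tmem119 (132.7 against 76.7 CPM) followed. AW112010 (134.4 against 624.9 CPM), Gbp2, Ly6a and Gm47283 were among those at the low end.

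Markers of other cell types were low in the class, with 1 exception, and their part in the results above was not tested beyond the values given here. Summed CPM of the T cell list ran from 1.76 to 2.36 over the 4 samples, and Cd3d, Cd3e, Cd3g, Trac and Cd8a had 0 UMIs in NTT, which allows up to 3 of the 1425057 UMIs counted. The NK cell list stood at 80.7 CPM in NTT and 15.1 in RTT, with 9.53 in RTT_ROSA26 and 16.4 in RTT_PTGS12KO, with 1, 3, 3 and 12 cells at 3 or more UMIs, and Gzma, a granzyme, gave 58.9 CPM of the NTT value. The dendritic cell list stood at 17.5, 4.17, 3.29 and 8.48 CPM. The neutrophil list was the exception, at 301.7, 174.7, 247.4 and 168.2 CPM with 36.7 to 43.1% of cells at 3 or more UMIs in every sample. These shares were counted without thinning. In the resistant tumours the same list stood at 148.8 to 178.5 CPM in TAM_C1q and 181.0 to 263.6 in TAM_Spp1, so its level is not particular to TAM_cycling. Leaving out each cell with 3 or more UMIs of any of these lists kept 48, 510, 1108 and 1019 cells and left the direction of the interferon-γ, class II, monocyte and complement-rich lists as given for NTT and the knockout.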

How the data were processed

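CD45+ cells were labelled with sample oligonucleotides, pooled and loaded 3 times. The authors counted UMIs per gene and cell with Cell Ranger on mm10 and analysed them with Seurat 4.3.0, and they deposited raw UMI counts with a cell annotation of 17 classes. The study kept cells with over 1000 genes, and the fewest genes in a deposited cell was 1001. TAM_cycling cells were taken from that annotation, and no doublet caller was run here. From the deposited counts, UMIs were summed per class and sample, divided by the class total (CPM) and compared as log2 ratios with no pseudocount, with exact conditional binomial limits at 95%. No test was run, since each group has 1 sample. A gene entered a comparison at 50 CPM in the higher sample and 50 UMIs in both together, and a 2-fold difference was counted. The genes named are the defining markers, members of 28 lists, and the 5 at each end of each ranking among genes at 100 CPM. Some genes that this rule names are not reported here. The members and lists were chosen with earlier results of these data known. Classes with under 30 cells in a sample were left out. Cells were thinned to 5000 UMIs for shares of cells with marker, cell cycle or interferon UMIs. For the nearest class, the multinomial likelihood of each cell's UMIs was taken under the mean profile of each non-dividing class, over 2000 variable genes. The class with the highest likelihood was the nearest. Cell cycle lists were left out, as were genes clearly higher in TAM_cycling than in every one of those classes. Motifs were counted in RefSeq windows from 250 bases before to 50 after the start on GRCm38.p6, and the 130 bases before it were printed. Scripts were checked on simulated counts (Python 3.11.15, scipy 1.17.1, edgeR 4.0.16 for TMM factors alone). Alternatives were other filters, scalings, thinning depths, denominators and subsets of cells. Leaving out cells with markers of other types while setting the neutrophil list aside was chosen after the data had been seen.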

Additional observations from a re-analysis of the deposited data

Results flagged for a closer look

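In 3 cases a list had a median on one side of 0 in TAM_cycling and on the other in another macrophage class under the same comparison, with both at least 0.25 from 0 and 3 or more genes in each; smaller or thinner differences of sign were left aside. The spindle and cytokinesis list gave -0.32 in TAM_cycling (18 genes) and 0.57 in TAM_C1q (3 genes) for RTT_ROSA26 against RTT. Over the 3 genes that passed in both classes the medians were -0.00476 and 0.57, so that TAM_cycling was near 0 on matched genes and not opposite. For NTT against RTT it gave -0.84 in TAM_cycling (18 genes) and 0.30 in TAM_H2Ab1 (3 genes). The list of cyclins, kinases and cell cycle drivers gave -0.48 in TAM_cycling (14 genes) and 0.83 in TAM_H2Ab1 (5 genes) for NTT against RTT. For NTT no comparison over matched genes was made. The difference between classes was not tested in any of the 3 cases, and the medians of the other classes rest on the few genes that passed the minimum there.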

How the results depend on the processing

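No paired analysis was possible because a single sample stands for each condition. Of the values that answer a comparison, 108 stayed within their counting limits or tolerance under an alternative, 51 moved and 2 changed sign. Of those for single lists and genes, 676 stayed, 172 moved and 1 changed sign, counting a change of sign only where the value was at least 0.25 from 0. Medians nearer to 0 also crossed it, among them type I interferon in RTT_ROSA26 against RTT (0.03, down to -0.51 with a minimum of 10 CPM) and DNA synthesis in NTT against RTT (-0.11, up to 0.15).

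With over 1500 genes and under 10% mitochondrial UMIs required, the share of CD45+ cells was 28.3% in RTT_ROSA26 and 18.7% in RTT_PTGS12KO, and the share of macrophages 31.8% in RTT_ROSA26. With cells of any macrophage class that had 3 marker UMIs counted in place of the annotated class, the shares of CD45+ cells were 0.668%, 10.3%, 22.0% and 14.99% in NTT, RTT, RTT_ROSA26 and RTT_PTGS12KO, and those of macrophages 15.4%, 11.98%, 24.7% and 28.3%. With 5 required they were 0.516%, 7.39%, 16.1% and 11.5%, and 11.9%, 8.63%, 18.03% and 21.8%. The log2 ratios of the CD45+ shares were then -3.94 for NTT against RTT (3 UMIs), -0.48 for RTT_PTGS12KO against RTT_ROSA26 (5 UMIs), and 1.10 and 1.12 for RTT_ROSA26 against RTT (3 and 5). Those of the macrophage shares were 0.36 and 0.46 for NTT against RTT, and 1.04 and 1.06 for RTT_ROSA26 against RTT. With monocytes in the denominator the shares were 1.14% in NTT, 12.03% in RTT and 19.9% in RTT_PTGS12KO, and 2 log2 ratios turned sign, that of NTT against RTT to -3.40 and that of RTT_PTGS12KO against RTT_ROSA26 to -0.59.

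The share with more G2/M than S UMIs was 48.7% in RTT_ROSA26 and 61.2% in RTT_PTGS12KO without thinning, and 58.6% and 68.4% with the replication and mitosis lists in place of the score lists. Nearest to Monocyte_1 lay 0.382% of RTT_ROSA26 cells without interferon and class II genes. With 500 genes, RTT_PTGS12KO had 15.7% nearest to Monocyte_1, 38.8% to TAM_C1q and 24.3% to TAM_H2Ab1. With a minimum of 10 CPM and 10 UMIs, 398 genes were 2-fold higher and 454 lower in NTT than RTT, 236 and 145 in RTT_PTGS12KO than RTT_ROSA26, and 16 and 56 in RTT_ROSA26 than RTT. With no minimum the counts were 1279 and 1074, 1317 and 1097, and 590 and 1196, which takes in genes of few UMIs. Without cells bearing markers of other types, 4 genes were higher in RTT_ROSA26 than RTT.

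Among cells nearest to TAM_C1q alone, the class II list turned in RTT_ROSA26 against RTT, from -0.87 to 0.0555, and the list had between the edited tumours its lowest value, 0.62 against 2.37 in all cells. NTT had 3 such cells, so this was not run there. Over all alternatives the type II interferon median stayed between 2.20 and 2.82, 2.41 and 3.81, and -1.90 and -1.39 in the 3 comparisons. This median and those that follow are over genes that could pass through their high sample alone. Their ranges are thus no check of the summed levels. For the knockout against its control, class II genes ranged from 0.62 to 2.46, monocyte genes from 1.12 to 2.84, type I genes from 0.54 to 1.83 and complement-rich genes from -1.06 to -0.35. The G2/M median of NTT against RTT stayed between -0.92 and -0.62. The causes of these shifts were not tested. NTT is limited by its 79 cells, and no setting supplies a second sample.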
